A study of Mus musculus with 2 samples.

Results

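Interferon-stimulated and antigen presentation genes were examined on the arrays of WT and G9a-KO mouse embryonic stem cells (ESCs). The 37 genes were chosen by name from 4 roles, namely RNA sensors, effectors, IRF and STAT factors and antigen presentation. Of these genes, 35 had at least 1 probe set with a single gene symbol, out of 18194 such genes on the array. *Isg15* and *Ifi44* were not measured, since the probe set of *Isg15* also carries the symbol *Gm9706* and *Ifi44* has no single-gene probe set here.

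The series holds 1 array per genotype. The WT cells were TT2, an ESC line made from an F1 embryo of a C57BL/6 female and a CBA male. By the labels and the design text, the G9a-KO cells came from TT2 cells with a mutant G9a allele and a floxed G9a allele. In these cells Cre removes exons 26 and 27, which encode the core of the catalytic SET domain, from the floxed allele. The labels give 800 nM 4-hydroxytamoxifen for 48 h and 48 h of culture after its removal in identical words for both samples, and do not say separately whether the WT cells were treated. The study's methods name the cells G9a-/- and mention no deletion step for them, so whether G9a was lost shortly before the RNA was taken or long before is unknown here. How many clones make up the G9a-KO cells is not stated. The study places these cells on inactivated embryonic fibroblasts and in serum with LIF, whereas the labels name serum replacement with little fetal calf serum and LIF.

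Interferons are secreted proteins that warn cells of infection. Cytosolic sensors such as RIG-I and MDA5 recognise double-stranded RNA and, through the factors IRF3 and IRF7, switch on interferon genes. Secreted interferon then acts through its receptors, JAK kinases and a complex with STAT2 and IRF9, which binds a promoter element called ISRE and induces effector genes that block viruses. Interferon also raises the genes that cut, transport and load peptides for MHC class I presentation. ESCs are known to respond weakly to interferon and to express a few of its targets, such as Ifitm genes, without it. G9a (gene *Ehmt2*) places the H3K9me2 mark, and the gene itself lies in the MHC region.

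Promoter sequences are shown for some of the measured members in whose windows the core of the ISRE was found before the transcript start. They were taken from RefSeq (GRCm38.p6), in which 31 of the 37 members had a window of 250 bases before and 50 bases after a transcript start. Capitals mark the ISRE core, searched as GAAANNGAAA on both strands, so that matches on the opposite strand read as its reverse complement.
*Ifit1* (chr19:34640770-34640828, plus strand): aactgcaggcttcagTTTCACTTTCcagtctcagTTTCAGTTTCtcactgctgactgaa
*Ifit3* (chr19:34583358-34583431, plus strand): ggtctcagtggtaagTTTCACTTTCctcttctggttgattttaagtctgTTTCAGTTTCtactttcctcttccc
*Bst2* (chr8:71537572-71537617, minus strand): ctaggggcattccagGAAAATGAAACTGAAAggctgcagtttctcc
*Ifitm2* (chr7:140955983-140956022, minus strand): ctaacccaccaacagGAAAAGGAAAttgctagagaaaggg
*Gbp2* (chr3:142620589-142620628, plus strand): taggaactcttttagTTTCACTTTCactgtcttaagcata
*B2m* (chr2:122147533-122147572, plus strand): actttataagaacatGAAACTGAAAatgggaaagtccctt

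In *Bst2* 2 matches overlap, and in *Ifit1* and *Ifit3* 2 matches lie apart from each other. The core was found in windows of 15 of the 31 members (48.4%), against 3.99% of all genes with a window. By window the shares were 38.5% of 39 and 3.44%. The GAS core, the letters TTCNNNGAA bound by STAT dimers and equal to their own reverse complement, was found in 9 of the 31 members (29.0%) and in 9.55% of all genes. A match is a description of letters and does not show binding.

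Each level below is a log2 value minus the 75th percentile of its array, and each difference is G9a-KO minus WT. The median of all probe sets lay at -2.24 in WT and -2.13 in G9a-KO, and a probe set below it on both arrays is called dim, because its value lies near the background and its fold is not exact. A gene is given by its brightest probe set unless stated otherwise. A single array per group leaves the spread between cultures unknown, so no test was made. The 18 probe sets for RNA added at hybridization differed by -0.16 to 0.21 (SD 0.11), which shows a part of the technical spread. *Ehmt2* was at 2.05 in WT and 0.51 in G9a-KO by one probe set and at -2.27 and -2.07 by the other, and neither can check the label, since their positions against the removed exons are unknown here.

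Markers of cell types moved on the same arrays. The 10 pluripotency markers were bright on both, from 1.77 to 5.98 in WT and from 1.60 to 6.59 in G9a-KO, with *Zfp42* lowest (-0.79) and *Dppa5a* highest (0.61). All 15 primitive endoderm markers were over 2-fold higher in G9a-KO, from *Gata4* (1.50) to *Cubn* (5.82), against 4.61% of all genes. The summed linear level of the 15 relative to the 75th percentile was 5.34 in WT and 109 in G9a-KO. Of 12 fibroblast markers, 4 (33.3%) were over 1.3-fold higher and 0 lower, against 17.4% and 17.2% of all genes. *Col5a2* was highest (3.06) and *Pdgfrb* lowest (-0.27). The sum of the 12 was 5.40 and 14.2. *Fn1* had the highest level of the list on both arrays, at 1.71 in WT and 3.31 in G9a-KO, and so weighs most in this sum. On at least 1 array 5 of the 12 were bright, among them *Fn1*, 3.05-fold higher, and *Col1a2*, 1.78-fold higher, while *Col1a1*, *Col3a1* and *Dcn* were dim on both. Of 11 leukocyte markers 3 (27.3%) were over 1.3-fold higher and 1 (9.09%) lower, against the same shares of all genes, 17.4% and 17.2%. *Ptprc* was highest (1.34) and *Coro1a* lowest (-1.75). The sum of the 11 was 4.85 and 4.27. *Coro1a* had the highest level of the list in WT, at 0.69, and was at -1.06 in G9a-KO. It weighs most in the fall of this sum, whereas 9 of the 11 differences lay above 0 and 2 below. On at least 1 array 6 of the 11 were bright, among them *Laptm5*, which differed by 0.068, and *Cd68*, 1.43-fold higher, while *Ptprc*, *Tyrobp* and *Itgam* were dim on both. The part of these cell types in the differences of *Xaf1*, *Ifi27*, *Dhx58*, *Ddx58* and the other members was not tested, and fewer cells of a type cannot be told apart from less RNA per cell in bulk samples.

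The members did not move together. The sensor genes *Dhx58* and *Ddx58* and the factor gene *Irf1* were lower in G9a-KO, the bright antiviral membrane proteins differed little apart from *Ifitm1*, and *Xaf1* and *Ifi27* were higher. Over 1.3-fold, the threshold of the study for this pair, 7 of the 35 measured members (20.0%) were higher and 9 (25.7%) lower, against 17.4% and 17.2% of all genes. Over 2-fold, 2 members (5.71%) were higher and 2 lower, against 4.61% and 3.76% of all genes. When each array was centred on its median instead, which lowers every difference by 0.10, 5 of 35 members were over 1.3-fold higher and 10 lower (28.6%), against 13.0% and 22.3% of all genes. Bright probe sets of *Adar*, *Trim25* and *Irf3* differed in both directions, and with such genes set aside 6 of 32 members (18.8%) were higher and 7 (21.9%) lower, against 18.2% and 16.7% of the genes left.

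The median difference of the 35 members was -0.080, and that of all genes was 0.036. Of the members, 24 were bright on at least 1 array and 11 were dim. With 35 members the shares above rest on few genes, and no test was made of them.

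**Figure D1:**
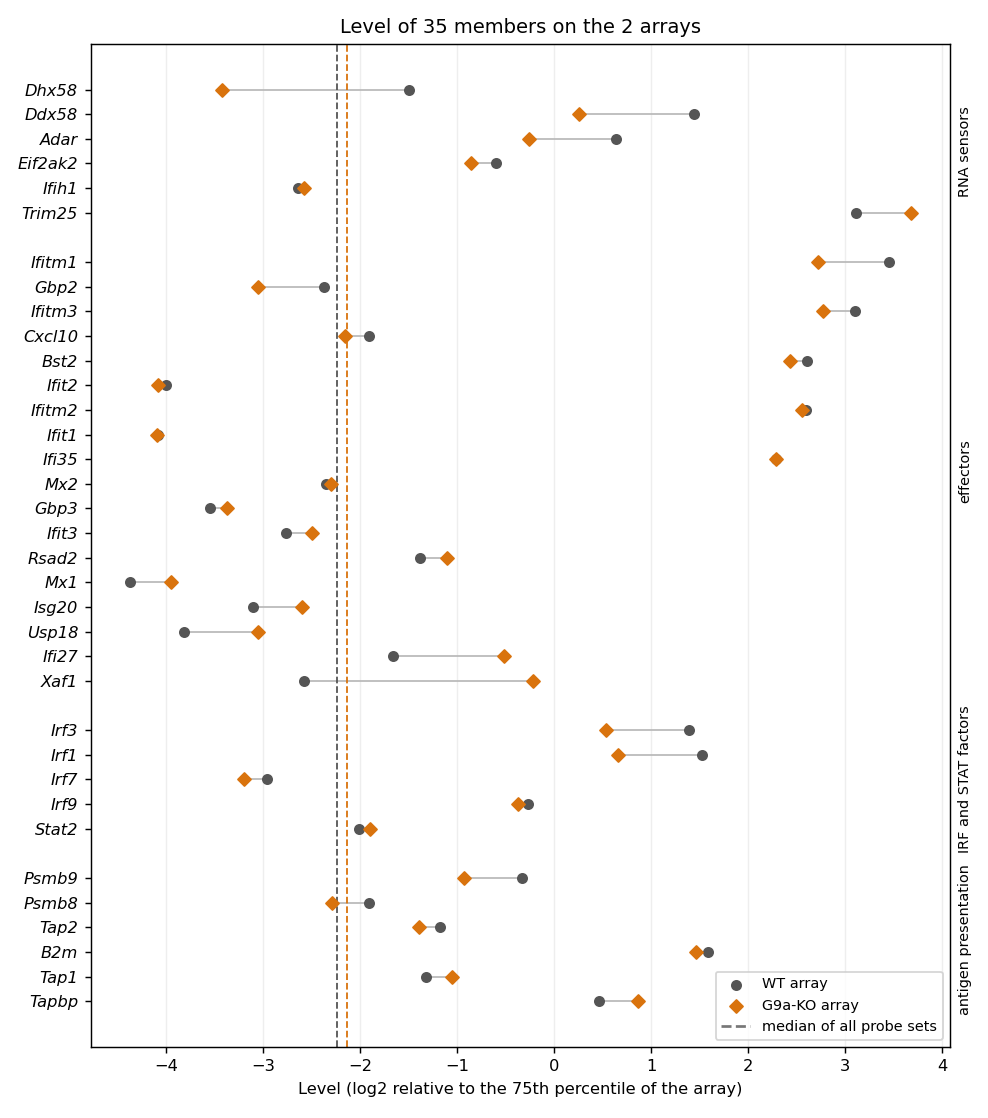
Level of the 35 measured members (horizontal axis, log2 minus the array's 75th percentile) on the WT array (grey circle) and the G9a-KO array (orange diamond), 1 point per array, grouped by role and ordered by difference, with dashed lines at the medians of all probe sets. *Dhx58* runs from -1.50 to -3.42 and *Xaf1* from -2.58 to -0.22, while *Ifi35* stays at 2.29 and its WT point is covered.

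The RNA sensors and their partners were 6 genes. Of these, 3 were over 1.3-fold lower in G9a-KO and 1 was higher, against 17.2% and 17.4% of all genes. The other 2 were within the threshold, and the median of the 6 was -0.58. Of the calls among the 6, those of *Adar* (lower) and *Trim25* (higher) went both ways between bright probe sets, which leaves *Dhx58* and *Ddx58*. *Dhx58*, which encodes the RIG-I-like helicase LGP2, was at -1.50 in WT and at -3.42 in G9a-KO. It was 3.80-fold lower and passed from above the median of the array to below it, where folds are not exact. Its other probe sets were dim on both arrays and differed by -0.28 and -0.21. The mean over its 3 probe sets was -0.80.

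*Ddx58*, which encodes RIG-I, the sensor of RNA with a 5' triphosphate, was at 1.44 in WT and 0.26 in G9a-KO, 2.28-fold lower. Its second bright probe set was at -1.06 and -2.08, so that 2 probe sets gave similar differences of -1.19 and -1.03. *Eif2ak2* encodes PKR, a kinase that stops translation when it binds double-stranded RNA. Its brightest probe set was at -0.60 and -0.86, 1.20-fold lower and within the threshold. The other probe sets of *Eif2ak2* were 1.40-fold and 2.45-fold lower, so all 3 lay in the same direction but differed in size. *Ifih1*, which encodes the sensor MDA5, was dim at -2.64 and -2.58. Its deposited values were identical on the arrays, so that its difference of 0.056 is the percentile shift alone.

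For the partners of the sensors the direction depended on the probe set. *Adar*, whose enzyme edits adenosine in double-stranded RNA, was at 0.64 in WT and -0.26 in G9a-KO by its brightest probe set, 1.87-fold lower. By its other bright probe set it was at -0.87 and -0.019, 1.80-fold higher, and the mean over its probe sets was 0.018. *Trim25*, a ubiquitin ligase that acts on RIG-I, was at 3.11 and 3.68, 1.48-fold higher. Another bright probe set of *Trim25* differed by 0.63 and one more by -0.59. The transcript forms behind these probe sets are unknown here, so neither gene has a settled direction.

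**Figure D2:**
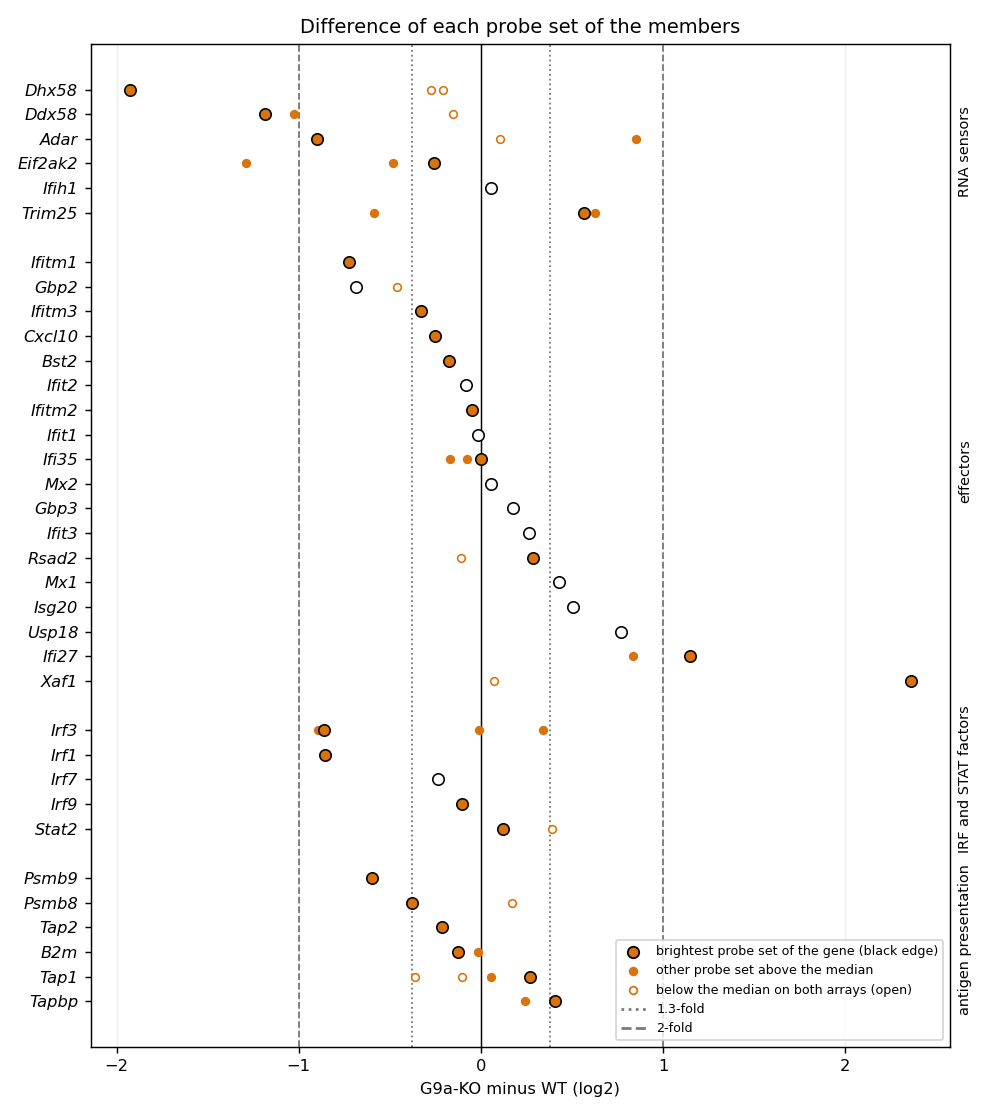
Difference between G9a-KO and WT (horizontal axis, log2) of the 62 single-gene probe sets of the members, 1 point per probe set, with dotted lines at 1.3-fold and dashed lines at 2-fold. Black edges mark the brightest probe set of a gene and open points are dim. The bright probe sets of *Ddx58* and *Eif2ak2* all lie left of 0, whereas those of *Adar*, *Trim25* and *Irf3* lie on both sides.

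Several probe sets were held by 16 members, and 10 had more than 1 bright probe set. In 3 of these 10, *Adar*, *Trim25* and *Irf3*, bright probe sets differed in both directions. The probe sets of a gene share the arrays and are no replicates.

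The IRF and STAT factors were represented by 5 genes. Of these, 2 were over 1.3-fold lower and 0 were higher, against 17.2% and 17.4% of all genes. The median of the 5 was -0.24, and it was 0.23 over the 2 genes left without probe sets that can bind several transcripts. *Irf1*, a factor that interferon-gamma induces and that drives class I presentation genes, was at 1.52 in WT and 0.66 in G9a-KO, 1.81-fold lower. It has a single probe set. *Irf3*, the factor that the sensors activate to start interferon transcription, was at 1.40 and 0.53, a difference of -0.86. The other probe sets of *Irf3* differed by -0.89, by -0.011 and, at a level close to the median of the arrays, by 0.34. The last of these was the one left when probe sets that can bind several transcripts were set aside, and the mean over the 4 was -0.36, within the threshold. *Irf3* thus has no settled direction either.

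By their brightest probe set the remaining factors stayed within 1.3-fold. *Irf9*, the DNA-binding part of the complex that reads ISRE, was at -0.27 and -0.37, and *Stat2*, its partner, at -2.02 and -1.90. A dim probe set of *Stat2* was 1.31-fold higher. *Irf7*, which amplifies interferon-alpha transcription, was dim at -2.96 and -3.20. *Irf1* was thus past the threshold by its single probe set and *Irf3* by some of its own, while *Irf9* and *Stat2* differed by -0.10 and 0.12.

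The effectors were the largest role, with 18 measured genes. Of these, 5 (27.8%) were over 1.3-fold higher and 2 (11.1%) lower, against 17.4% and 17.2% of all genes, and 11 were within the threshold. The median of the 18, 0.028, lay beside that of all genes (0.036), and under other scalings it ran from -0.074 to -0.0065. On both arrays 9 of the 18 were dim.

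The classical antiviral effectors were mostly among the dim genes. *Ifit1*, whose protein binds foreign RNA caps, was at -4.08 in WT and -4.10 in G9a-KO, and *Ifit2* was at -4.01 and -4.09. *Ifit3*, their partner, was at -2.76 and -2.50. The 3 Ifit genes thus lay below the median on both arrays and within 1.3-fold. The windows printed above for *Ifit1* and *Ifit3* hold 2 ISRE cores each.

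The dynamin-like GTPases *Mx1* (-4.38 and -3.95) and *Mx2* (-2.36 and -2.30) were dim as well. *Mx1* was 1.34-fold higher, a value that fell within the threshold under 4 other scalings, and *Mx2* had identical deposited values. *Usp18*, which removes ISG15 from proteins and dampens the receptor, was at -3.82 and -3.05, 1.70-fold higher but dim on both arrays. *Isg20*, an RNA exonuclease, was at -3.10 and -2.60, 1.42-fold higher and likewise dim. Of the 5 higher effectors, *Mx1*, *Usp18* and *Isg20* therefore have folds that are not exact. The GTPase gene *Gbp2* was dim too, at -2.37 and -3.06. It was 1.61-fold lower. *Gbp3*, with 1 protein-coding gene between the pair on chromosome 3, was at -3.55 and -3.38.

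*Xaf1* and *Ifi27* were the members more than 2-fold higher. *Xaf1*, a pro-apoptotic interferon target, was at -2.58 in WT and at -0.22 in G9a-KO, 5.13-fold higher by 1 of its 2 probe sets. It lay below the median in WT, so the fold is not exact. The other probe set was dim at -3.67 and -3.60. *Ifi27*, which encodes a small mitochondrial and nuclear membrane protein, was at -1.66 and -0.51, 2.22-fold higher. Its second probe set was at -2.45 and -1.61, 1.78-fold higher, so the 2 probe sets of *Ifi27* differed in the same direction. *Xaf1* had a promoter window without the ISRE core, and *Ifi27* had none in the table.

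Membrane-bound restriction factors were bright on both arrays. *Ifitm1*, *Ifitm2* and *Ifitm3* encode small proteins that block the entry of enveloped viruses, and they follow each other in the RefSeq order of protein-coding genes on chromosome 7. *Ifitm1* was at 3.45 in WT and 2.72 in G9a-KO, 1.65-fold lower. *Ifitm3* was at 3.10 and 2.78, 1.25-fold lower, and *Ifitm2* at 2.60 and 2.55. Of the 3 neighbours, *Ifitm1* thus passed the 1.3-fold threshold, and the others stayed within it. Probes for such close relatives can bind more than 1 transcript, which makes each value uncertain. *Bst2*, which encodes the virion-retaining protein tetherin, was at 2.61 and 2.44, 1.13-fold lower, and its promoter holds the overlapping ISRE cores printed above.

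The other effectors differed little. *Ifi35* was at 2.29 on both arrays, and its other probe sets differed by -0.077 and -0.17. *Rsad2*, which encodes the radical-SAM enzyme viperin, was at -1.39 and -1.10, 1.22-fold higher. *Cxcl10*, a chemokine, was at -1.91 and -2.16, 1.19-fold lower. The 3 genes were bright on at least 1 array and stayed within the 1.3-fold threshold.

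Antigen presentation was represented by 6 genes, all bright on at least 1 array. Of these, 1 (16.7%) was over 1.3-fold higher and 2 (33.3%) were lower, against 17.4% and 17.2% of all genes. The median of the 6 was -0.17, and it was 0.27 over the 3 genes left without probe sets that can bind several transcripts. *Psmb9* and *Psmb8* encode catalytic subunits that replace constitutive ones in the immunoproteasome. *Psmb9* was at -0.33 in WT and -0.93 in G9a-KO, 1.51-fold lower. *Psmb8* was at -1.91 and -2.29, a difference of -0.38 that lies at the threshold. Its other probe set was dim and differed by 0.17, and the mean over its probe sets was -0.10, within the threshold. The other inducible subunit, *Psmb10*, differed by -0.36. For the constitutive counterparts the differences were -0.11 for *Psmb6* (counterpart of *Psmb9*), -0.36 for *Psmb5* (of *Psmb8*) and 0.14 for *Psmb7* (of *Psmb10*). The difference of the inducible subunit minus that of its counterpart was -0.49 for *Psmb9*, -0.50 for *Psmb10* and -0.017 for *Psmb8*.

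*Tap1* and *Tap2* encode the transporter that carries peptides into the endoplasmic reticulum. *Tap1* was at -1.32 and -1.05, 1.21-fold higher, and its second bright probe set had identical deposited values on the arrays. Its dim probe sets differed by -0.11 and -0.36, and the mean over all 4 was -0.035. *Tap2* was at -1.18 and -1.40, 1.16-fold lower. Neither passed the threshold. *Tapbp*, which encodes tapasin, the factor that bridges transporter and class I molecules, was at 0.46 and 0.87, 1.32-fold higher, and its second probe set at -1.91 and -1.66 was within the threshold. The call of *Tapbp* was lost with no shift of the arrays, with median centring and with the mean over its probe sets. *B2m*, the light chain of class I molecules, was at 1.59 and 1.46, 1.09-fold lower, and its other probe set differed by -0.018.

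*Psmb9*, *Tap1*, *Psmb8* and *Tap2* follow each other in the RefSeq gene order on chromosome 17, and *Psmb9* and *Tap1* are transcribed away from each other from a common promoter. Their transcript starts in the table lie 225 bases apart, and their windows share 275 of 300 bases. The bases between the starts are printed on the strand of *Tap1* because they precede both genes, and neither the ISRE core nor the GAS core was found in them.
*Tap1* and *Psmb9* (chr17:34187331-34187555, plus strand): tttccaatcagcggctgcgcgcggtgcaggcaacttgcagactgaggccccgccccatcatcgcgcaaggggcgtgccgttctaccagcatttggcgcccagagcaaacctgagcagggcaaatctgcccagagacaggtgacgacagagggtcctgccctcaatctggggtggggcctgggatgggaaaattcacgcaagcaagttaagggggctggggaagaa

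By their brightest probe sets these neighbours differed by -0.60 for *Psmb9*, past the threshold, and by 0.27 for *Tap1*, within it. The sign of *Tap1* turned with the choice of probe set, as given above. The following genes, *Psmb8* and *Tap2*, differed by -0.38 and -0.22. Whether the difference between *Psmb9* and *Tap1* exceeds the spread between cultures is unknown.

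The letters of the promoters were set beside the differences for the measured members with a window. Of the 14 with an ISRE core, 0 were over 1.3-fold higher and 2, *Ddx58* and *Gbp2*, were lower, with a median of -0.085 and a range from -1.19 to 0.29. Of the 15 without it, 4 were higher and 6 lower. Over all genes, 17.4% were higher and 17.2% lower. The calls without the core include *Adar*, *Trim25* and *Irf3*, which have no settled direction. The median of the 15 was -0.10 with a range from -0.90 to 2.36. The medians of the groups thus lay close together. The range was wider without the core, with *Adar* at its lower end and *Xaf1*, by 1 of its 2 probe sets, at its upper end. These counts and ranges rest on few genes, and no test was made between the groups. *Dhx58*, the lowest member, had no window.

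**Figure D3:**
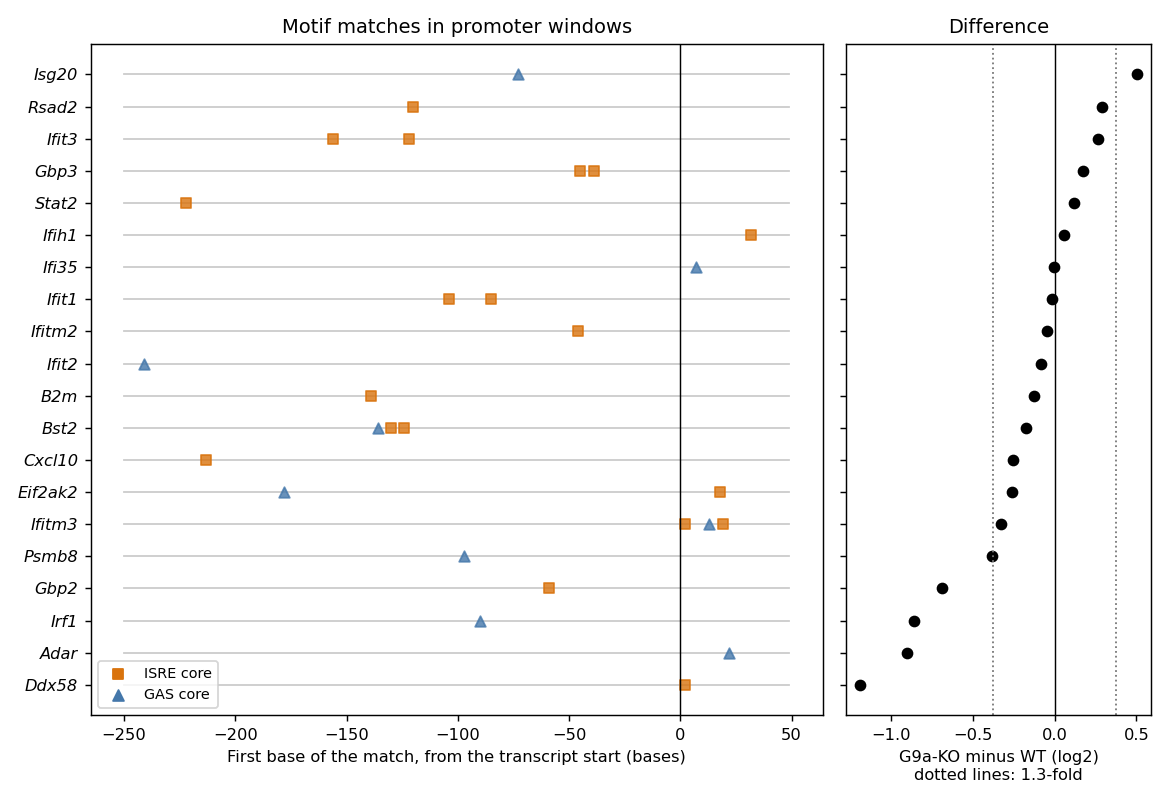
Left, position of ISRE cores (orange squares) and GAS cores (blue triangles) in the promoter windows of the 20 measured members with at least 1 match (horizontal axis, bases from the transcript start to the first base of the match on the strand of the gene, with 0 at the start). Right, difference between G9a-KO and WT (log2) of the same genes, with dotted lines at 1.3-fold. *Ddx58*, with a core just after the start, lies lowest at -1.19, and *Isg20*, with a GAS core, lies highest at 0.51.

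Other genes of the pathway were examined by lists. Their counts stand beside 17.4% of all genes over 1.3-fold higher and 17.2% lower. Of the 120 measured genes of these lists, 30 (25.0%) were higher and 17 (14.2%) lower. Of the 19 interferon genes listed, 10 were measured, of which 8 were dim, and 1 of the 10 was over 1.3-fold higher and 0 lower (median 0.10). *Ifnb1* was at -2.64 in WT and -2.59 in G9a-KO. The bright ones, *Ifnz* and *Ifna5*, were 1.17-fold lower each. The gene over the threshold was *Ifna11*, dim on both arrays. Interferon transcripts thus lay mostly below the median on either array.

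Of 10 measured receptor and kinase genes, 3 were higher and 1 was lower (median 0.082). *Jak1*, a kinase of all interferon receptors, was at 0.51 and 1.53, 2.03-fold higher. *Jak2*, which serves the interferon-gamma receptor, was 1.57-fold higher and *Il10rb*, a subunit of the interferon-lambda receptor, 1.54-fold higher. *Il10rb* lay below the median in WT, at -2.68. The lower gene of the list was *Ifnlr1*, also an interferon-lambda receptor gene, at -0.93 and -1.41, 1.39-fold lower. By their brightest probe sets the receptor chains *Ifnar1* (-0.058) and *Ifnar2* (-0.018) differed little. A dim probe set of *Ifnar2* was over 1.3-fold lower. Of 6 inhibitors of the pathway, 2 were higher and 2 lower (median -0.17). *Socs3*, which LIF also induces, was 1.96-fold higher, *Socs1* 1.39-fold higher and *Pias1* 2.15-fold lower. A dim probe set of *Pias1* was over 1.3-fold higher. *Jak1*, *Jak2* and the SOCS inhibitors were thus higher, while the receptor chains of interferon-alpha were within the threshold by their brightest probe sets.

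Of 15 sensor adaptors and other nucleic acid sensors, 4 were higher and 2 lower (median 0.0082). *Dhx36* was 1.42-fold higher, *Zbp1*, a Z-nucleic acid sensor, 1.42-fold higher and *Zc3hav1*, the antiviral protein ZAP, 1.33-fold higher. The adaptors *Mavs* (-0.21) and *Tmem173* (-0.083), which encodes STING, stayed within the threshold, and bright probe sets of *Mavs* differed in both directions. The lower genes of the list were *Traf6* (-0.83), a ubiquitin ligase with bright probe sets in both directions, and *Tbk1* (-0.40), the kinase that activates IRF3. Of 4 other IRF genes, 2 were higher and 1 was lower (median 0.15), and the bright ones were *Irf8*, 1.40-fold lower, and *Irf5*, 1.06-fold lower.

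Among 52 other interferon-stimulated genes, 11 (21.2%) were over 1.3-fold higher and 6 (11.5%) lower, against 17.4% and 17.2% of all genes (median 0.058). Over 2-fold, 6 (11.5%) were higher and 0 lower, against 4.61% and 3.76% of all genes. *Phf11d* was at 0.83 and 2.87, 4.10-fold higher. *Lgals9*, which encodes a galectin, was at -2.30 and -0.70, 3.03-fold higher, and *Sp110*, a nuclear body gene, at -2.33 and -1.04, 2.43-fold higher, and both lay below the median in WT. The Oas genes, whose enzymes make the activator of RNase L, are in this list, and *Oas1a*, 1.33-fold higher, and *Oasl2*, dim and 1.37-fold lower, passed the threshold. The median of the list lay beside that of all genes, as it did for the effectors, while its share over 2-fold higher lay above that of all genes.

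Class I peptide loading and trimming genes had the highest median of the pathway lists, 0.28. Of 12 measured genes, 5 (41.7%) were higher and 2 (16.7%) lower, against 17.4% and 17.2% of all genes. *Pdia3*, which joins the peptide-loading complex and is a general folding enzyme, was at 3.21 and 4.26, 2.07-fold higher. *H2-D1*, a class I heavy chain, was 1.72-fold higher and *H2-Q10* 1.63-fold lower. Values of single class I genes are uncertain, since their sequences are alike. *Calr* (0.58) and *Canx* (0.47), general chaperones of the endoplasmic reticulum, were higher as well, while the trimming gene *Erap1* (0.67) lay below the median in WT. Of 8 class II genes, 2 were higher and 3 lower (median -0.14), with *H2-Eb1* 2.41-fold higher, *H2-DMa* 1.76-fold lower and *H2-Oa* 1.37-fold lower.

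**Figure D4:**
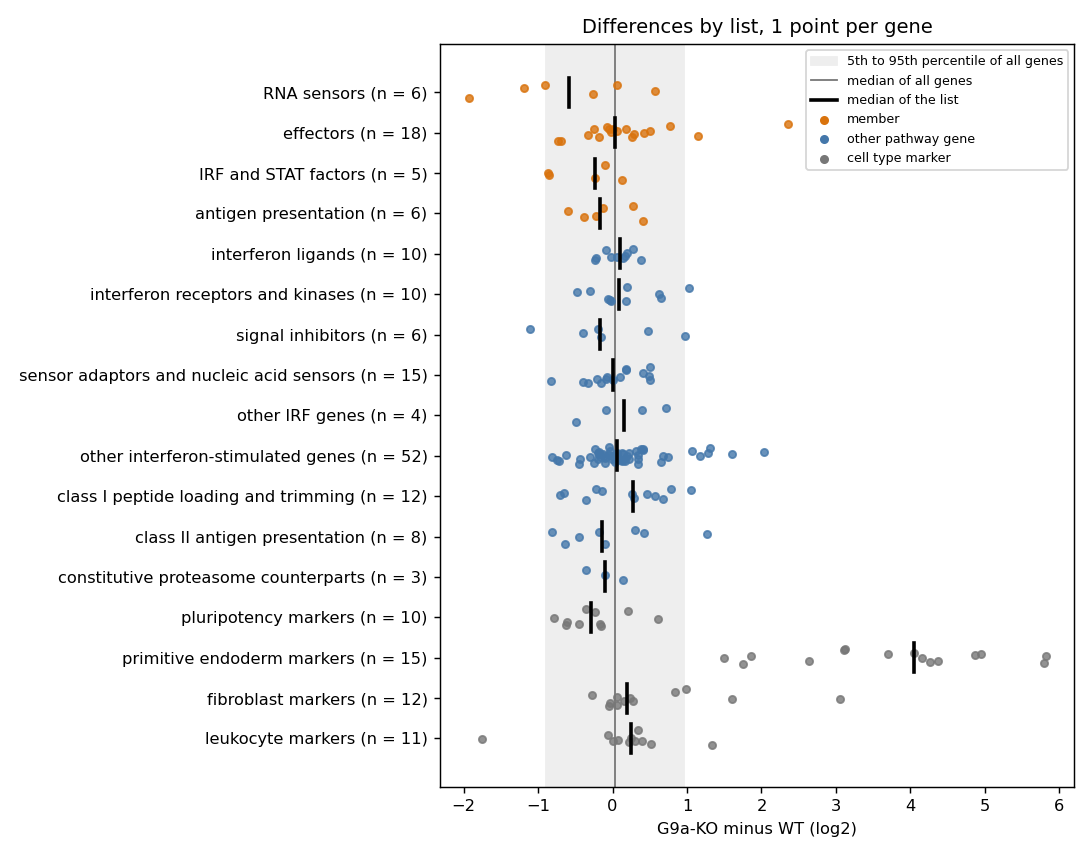
Difference between G9a-KO and WT (horizontal axis, log2) by list, 1 point per gene, with the median of each list (black bar), the median of all genes (grey line) and their 5th to 95th percentile (grey band). Members are orange, other pathway genes blue and cell type markers grey. RNA sensors have the lowest median (-0.58), and primitive endoderm markers, all over 2-fold higher, the highest (4.04).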

How the data were processed

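Total RNA (200 ng) of WT and G9a-KO ESCs was labelled with biotin and measured on an Affymetrix mouse 3' expression array, 1 array each. The authors deposited log2 values, for which the submitters' processing notes name RMA and R 3.2.1. RMA corrects background, gives the arrays the same intensity distribution and summarises probe sets, so a change in total RNA per cell is not visible. With 2 arrays it can return identical values, as for 2347 of 45101 probe sets and 3 of those of the members.

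Following the methods of the study, the 75th percentile (7.37 in WT, 7.31 in G9a-KO) was subtracted within each array, and WT was then subtracted from G9a-KO. GEO's platform annotation gave the gene names. Of the probe sets, 34958 had 1 symbol, 932 several and 9211 no symbol there. *Tmem173* and *Mb21d1* were matched by gene ID. The brightest probe set, by the mean of both arrays, stood for a gene, whereas the study called a gene when at least 1 of its probe sets passed. All members are named, and of each other list up to 3 bright genes with the largest difference for which all bright probe sets had the same sign. Further genes were named after their values were seen. Members and lists were chosen with earlier results of these data known.

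With 1 array per group no p-value or SE was computed, and precision is limited by the number of arrays. Alternatives were other scalings, filters and probe set rules. The steps were tested on simulated data. Python 3.11.15, pandas 2.3.3 and statsmodels 0.14.6 were used.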

Additional observations from a re-analysis of the deposited data

How the results depend on the processing

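No paired analysis was possible because each group holds 1 array. Among members past 1.3-fold, the sign turned for *Adar* (0.018 with the mean over probe sets) and *Irf3* (0.34 without the _s_at, _x_at and _a_at probe sets). Among the others, *Tap1* turned to -0.035 with the mean over probe sets and to -0.36 with the probe set of the largest difference. No shift, median centring, quantile normalization and lowess correction moved no median by more than 0.11, and left 5 to 6 of 35 members higher and 9 to 10 lower, against 13.0% to 16.1% and 18.3% to 22.3% of all genes. With the mean over probe sets 5 were higher and 7 lower, against 15.7% and 13.8% of all genes. With the probe set of the largest difference 8 (22.9%) were higher and 10 (28.6%) lower, against 23.3% and 21.0% of all genes.

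A further alternative kept probe sets above the median only, a filter that a gene can pass through the array on which it is high. There 4 of 24 members (16.7%) were higher and 8 (33.3%) lower, against 21.0% and 22.9% of the genes left. The medians were -0.20 (24 members), -0.90 (RNA sensors) and -0.48 (IRF and STAT factors). Without the _s_at, _x_at and _a_at probe sets, 24 members remained measured. Of these, 3 (12.5%) were higher and 6 (25.0%) lower, against 17.3% and 16.5% of the genes left. The medians were -0.90 (RNA sensors), 0.23 (IRF and STAT factors, 2 genes) and 0.27 (antigen presentation, 3 genes). In these alternatives fewer genes were measured. Setting aside genes whose bright probe sets differed in direction, an alternative chosen after seeing the data, put the median of the RNA sensors at -0.72 (4 genes). The median of the RNA sensors was -0.33 with the mean over probe sets and -1.04 with the probe set of the largest difference, which put antigen presentation at -0.29. *Ddx58*, *Dhx58*, *Usp18*, *Isg20*, *Ifitm1*, *Ifi27*, *Xaf1*, *Gbp2*, *Irf1* and *Psmb9* stayed past 1.3-fold in the same direction under each alternative that measured them. *Usp18*, *Isg20*, *Ifitm1*, *Irf1* and *Psmb9* have 1 probe set each, so rules on the choice of probe set could not change their values. The filter for probe sets above the median left out *Usp18*, *Isg20* and *Gbp2*. The filter on _s_at, _x_at and _a_at probe sets left out *Isg20*, *Ifi27* and *Irf1*.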
